A study of Mus musculus with 16 samples.

Results

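Migrating GABAergic cells of mouse embryos whose dams had received the insecticide alpha-cypermethrin without restraint were set against those of embryos whose dams had been restrained and had received only the oil vehicle. The comparison used 8 of the series' 16 libraries: the 4 labelled cypermethrin and non-stressed, and the 4 labelled vehicle and prenatal stress. Of the 24539 genes of the count table, the 13224 that passed a filter on low counts entered the fit. The other 8 libraries, 4 with both exposures and 4 with neither, entered the fit so that all groups shared 1 estimate of the spread. The groups were chosen by their labels, and apart from the filter on low counts no measured value chose a gene for the test.

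Both groups came from CD1 dams and from embryos of genotype GAD67-GFP+/- at embryonic day 14.5, with 1 embryo taken per litter and each labelled male. In the cypermethrin non-stressed group the dams were gavaged with 10 mg/kg alpha-cypermethrin on each of gestational days 11 to 14 and were not restrained. In the vehicle stressed group the dams were gavaged with corn oil on the same days and were restrained under bright light. Restraint was given in 3 daily sessions of 45 min on days 12 and 13 and in a final session on day 14. The final session ended 15 min before euthanasia, and in both groups the last gavage came 90 min before euthanasia. The 2 groups thus differed in both the insecticide and the restraint, and neither was a control. A difference between them can come from either exposure, and the contrast alone cannot tell which. About 1000 green fluorescent cells per embryo were cut by laser from 10 µm sections of fixed cortical plate, at the front of the migrating stream, and their RNA was amplified and sequenced. GFP marked cells that express GAD67, the GABA-synthesising enzyme encoded by Gad1, and the reporter was heterozygous in all groups.

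Pyrethroids such as cypermethrin slow the closing of voltage-gated sodium channels, which prolongs the sodium current. Restraint of a pregnant rodent raises circulating corticosterone, which binds the glucocorticoid receptor (Nr3c1) and the mineralocorticoid receptor (Nr3c2) and switches on genes such as Fkbp5 and Tsc22d3. Cortical interneurons are born in the ganglionic eminences of the ventral forebrain under Dlx, Nkx2-1 and Lhx6 control and migrate tangentially into the cortex, guided by cues that include Cxcl12, neuregulins and endocannabinoids.

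Total counts averaged 3350844 ± 793476 in the cypermethrin non-stressed group and 3133122 ± 697909 in the vehicle stressed group (SD, n = 4 each). The library labelled as vehicle stressed replicate 1 stood apart. It held 9521 counts of Xist, the RNA of the inactive X chromosome, and 1 count over 4 Y-linked genes, whereas in each of the other 15 libraries Xist had at most 26 counts and the Y-linked genes at least 555, so its content went against its label of male. It also had the fewest detected genes of the 16 libraries, 12153. Its correlations with the other 7 libraries of the comparison had a median r of 0.82 over log2(CPM + 2), where CPM is a gene's count scaled to a common library size. Low correlation was not particular to it. Its mean r within its group was 0.815, against 0.822 for cypermethrin non-stressed replicate 3 in its own group, and pairs without it went down to 0.776. The comparison was therefore repeated without the library labelled as vehicle stressed replicate 1, and "in the repeat" below means the fit that leaves it out. The labels call the cells neural progenitor cells, and the markers were mixed. Hes5, a Notch target of radial glia, reached at most 1.26 CPM and Eomes, a factor of intermediate progenitors, at most 6.05 CPM in any of the 8 libraries, while Nes, a filament protein of progenitors, had 312 to 461 CPM in the cypermethrin non-stressed group and 436 to 699 CPM in the vehicle stressed group. The replication and mitosis genes summed to 783 to 1248 CPM and to 834 to 921 CPM in the same groups. Dcx, a microtubule protein of migrating neurons, ran from 3444 to 5050 CPM in the cypermethrin non-stressed group and from 3540 to 4913 CPM in the vehicle stressed group. The libraries were bulk samples, so fewer cells of a type and less RNA per cell cannot be told apart.

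No gene differed between the groups at an adjusted p under 0.05 in the main fit. Of 13224 genes tested with edgeR's quasi-likelihood test, 0 were called (percent called 0), and the smallest Benjamini-Hochberg adjusted p was 0.138. At an unadjusted p under 0.05 there were 1093 genes (8.27%), with 545 higher in the cypermethrin non-stressed group (4.12%) and 548 lower (4.14%). In 337 genes (2.55%) the 4 values of one group all lay above the 4 values of the other, with 167 higher (1.26%) and 170 lower (1.29%). For 4 libraries against 4 in random order such a separation has a probability of 0.0286, near the share seen. Groups without overlap, as given below, therefore do not by themselves mark a gene. DESeq2 called 13 genes, 9 higher and 4 lower, and limma voom called 0, with 740 genes at an unadjusted p under 0.05. The descriptions of the libraries carry a code of unstated meaning that divides them: within its first value (1 cypermethrin non-stressed library against 2 vehicle stressed) and its second (3 against 2) 0 genes were called. At an unadjusted p under 0.05 there were 179 genes (13 higher and 166 lower) and 396 genes (210 higher and 186 lower), and the first of these fits has an arm of 1 library, so its count of calls says little. With the code as a term 0 genes were called and 804 had an unadjusted p under 0.05. Over the genes tested, standard errors of the log2 difference had a median of 0.54.

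Correlations between libraries were similar within and between the groups. The median r was 0.853 over the 12 pairs within a group and 0.844 over the 16 pairs between the groups, and without the library labelled as vehicle stressed replicate 1 it was 0.867 within and 0.869 between. These correlations are across genes and pairs share libraries, so they are a description only.

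Without that library, 13609 genes were tested and 0 were called (percent called 0), with a smallest adjusted p of 0.473. At an unadjusted p under 0.05 there were 928 genes (6.82%), 530 higher (3.89%) and 398 lower (2.92%). Of these, 539 were also under 0.05 with all libraries, and 538 of them had the same sign. In 728 genes (5.35%) the groups did not overlap, 325 higher (2.39%) and 403 lower (2.96%), which is a looser criterion with 3 libraries on one side. DESeq2 called 12 genes. Of the 548 genes lower with all libraries, 348 had their highest level of the 8 libraries in the library labelled as vehicle stressed replicate 1, and of the 545 higher, 92 had a count of 0 there.

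The genes with the smallest p values were chosen by rank: the 20 smallest with all libraries and the 10 smallest in the repeat, gene models known only by clone numbers left out. None passed the adjusted threshold in edgeR. Of the 20, DESeq2 called Pisd-ps3, Cpeb1, Dnajc25, Stk32b, Ogfrl1, Fibp, Mut, Lcorl, Spata6, Lrr1 and Fibcd1. Its adjusted p for these ran from 0.000415 for Cpeb1 to 0.0494 for Lcorl and Lrr1. Of the 10, in the repeat, it called Pisd-ps3, Cpeb1, Ogfrl1, Btbd7, Cntn3 and Marveld1. Of the 20, 15 were higher in the cypermethrin non-stressed group and 5 lower, 14 had groups that did not overlap, and all 20 stayed under an unadjusted p of 0.05 in the repeat. Since they were picked by p, these counts describe the picks.

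For 3 of the leading protein-coding genes the RefSeq promoter windows of 300 bases (build GRCm38.p6) are shown as sequence context. Cpeb1, Dnajc25 and Stk32b have the smallest p after Pisd-ps3 with all libraries; in the repeat Stk32b ranked 18. Capitals mark the matches to 5 motifs that were searched: the cyclic AMP response element half-site TGACG, the glucocorticoid receptor half-site AGAACA, the E-box CACGTG and the heat shock element pair GAANNTTC on both strands, and the TATA box TATAA on the gene's strand. The windows are Cpeb1 at chr7:81454709-81455008 on the minus strand, Dnajc25 at chr4:59002943-59003242 on the plus strand and Stk32b at chr5:37717104-37717403 on the minus strand, each written 5′ to 3′ on the gene's strand.
Cpeb1: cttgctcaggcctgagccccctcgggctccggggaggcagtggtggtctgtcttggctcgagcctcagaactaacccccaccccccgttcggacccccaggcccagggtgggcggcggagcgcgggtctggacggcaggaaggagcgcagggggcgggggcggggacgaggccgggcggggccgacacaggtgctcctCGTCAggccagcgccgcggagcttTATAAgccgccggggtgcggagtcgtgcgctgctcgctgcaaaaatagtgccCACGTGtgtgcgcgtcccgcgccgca
Dnajc25: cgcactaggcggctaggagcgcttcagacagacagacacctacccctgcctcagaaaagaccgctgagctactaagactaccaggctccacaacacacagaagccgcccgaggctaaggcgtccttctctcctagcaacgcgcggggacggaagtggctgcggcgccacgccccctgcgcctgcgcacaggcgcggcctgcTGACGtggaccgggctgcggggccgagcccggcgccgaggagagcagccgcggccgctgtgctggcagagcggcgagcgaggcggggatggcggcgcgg
Stk32b: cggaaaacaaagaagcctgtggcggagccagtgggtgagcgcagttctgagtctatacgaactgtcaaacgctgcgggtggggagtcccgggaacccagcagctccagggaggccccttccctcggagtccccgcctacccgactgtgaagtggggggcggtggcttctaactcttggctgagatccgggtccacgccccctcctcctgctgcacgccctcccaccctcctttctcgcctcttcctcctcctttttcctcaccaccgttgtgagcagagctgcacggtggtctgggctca

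The Cpeb1 window held CGTCA, the half-site on the other strand, at -52 from the start, TATAA at -28 and CACGTG at 24 after it. The Dnajc25 window held TGACG at -49, and the Stk32b window held none of the 5. Offsets are from RefSeq starts. The GENCODE vM21 gene begins further upstream, at 81455465 for Cpeb1 and at 58995062 for Dnajc25. Over 32851 RefSeq windows of the same length, TGACG was present in 20.8%, TATAA in 17.5%, AGAACA in 19.0%, GAANNTTC in 7.86% and CACGTG in 7.15%. The matches are letters in a window and were not tested against the expression values.

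Pisd-ps3, annotated in RefSeq as a transcribed pseudogene of the phosphatidylserine decarboxylase gene Pisd, had the smallest p. It had 17.2, 14.8, 21.0 and 36.0 CPM in cypermethrin non-stressed replicates 1 to 4, against 167, 59.2, 123 and 77.3 CPM in vehicle stressed replicates 1 to 4. Every cypermethrin non-stressed library was below every vehicle stressed one, and the groups with both exposures and with neither lay between them, at means of 54.0 and 44.4 CPM. The fitted log2 difference was -2.27 ± 0.43 (SE, adjusted p = 0.138), and without the library labelled as vehicle stressed replicate 1 it was -1.96 ± 0.43. Reads of near-identical copies can be split among them by the counting, so its level is uncertain. Its relatives, looked at after its value was seen, had groups that overlapped and log2 differences of 0.53 ± 0.53 for Pisd, -0.48 ± 0.51 for Pisd-ps1 and 0.49 ± 0.80 for Pisd-ps2.

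Cpeb1, an RNA-binding protein that controls the poly(A) tail and translation of stored mRNAs, was nearly absent from the vehicle stressed group. It had 4.04, 2.16, 35.1 and 75.7 CPM in the cypermethrin non-stressed libraries, against 0, 0.31, 0.71 and 0.24 CPM in the vehicle stressed libraries. The group totals were 317 and 4 counts, so the fitted log2 difference of 6.35 ± 1.24 (adjusted p = 0.138) rests on very few reads on one side and on 2 high libraries on the other. Means were 3.30 CPM with both exposures and 1.29 CPM with neither. The gene lies on chromosome 7 from 81347026 to 81455465.

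Dnajc25, a J-domain protein of the Hsp40 co-chaperone family, had 10.1, 18.8, 194 and 23.8 CPM in the cypermethrin non-stressed libraries, against 1.90, 1.57, 5.70 and 3.77 CPM in the vehicle stressed libraries. The groups did not overlap, and replicate 3 of the cypermethrin non-stressed group was far above the rest. The log2 difference was 4.23 ± 0.88 (adjusted p = 0.219), and 4.07 ± 0.97 in the repeat.

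Stk32b, a serine/threonine kinase on chromosome 5 from 37446825 to 37717171, had the highest level of the 5 lower genes. It had 222, 189, 188 and 105 CPM in the cypermethrin non-stressed libraries, against 530, 278, 411 and 256 CPM in the vehicle stressed libraries. The log2 difference was -1.06 ± 0.24 (adjusted p = 0.390) and -0.83 ± 0.23 in the repeat, and the means of 231 CPM with both exposures and 235 CPM with neither fell between the 2 groups.

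**Figure D1:**
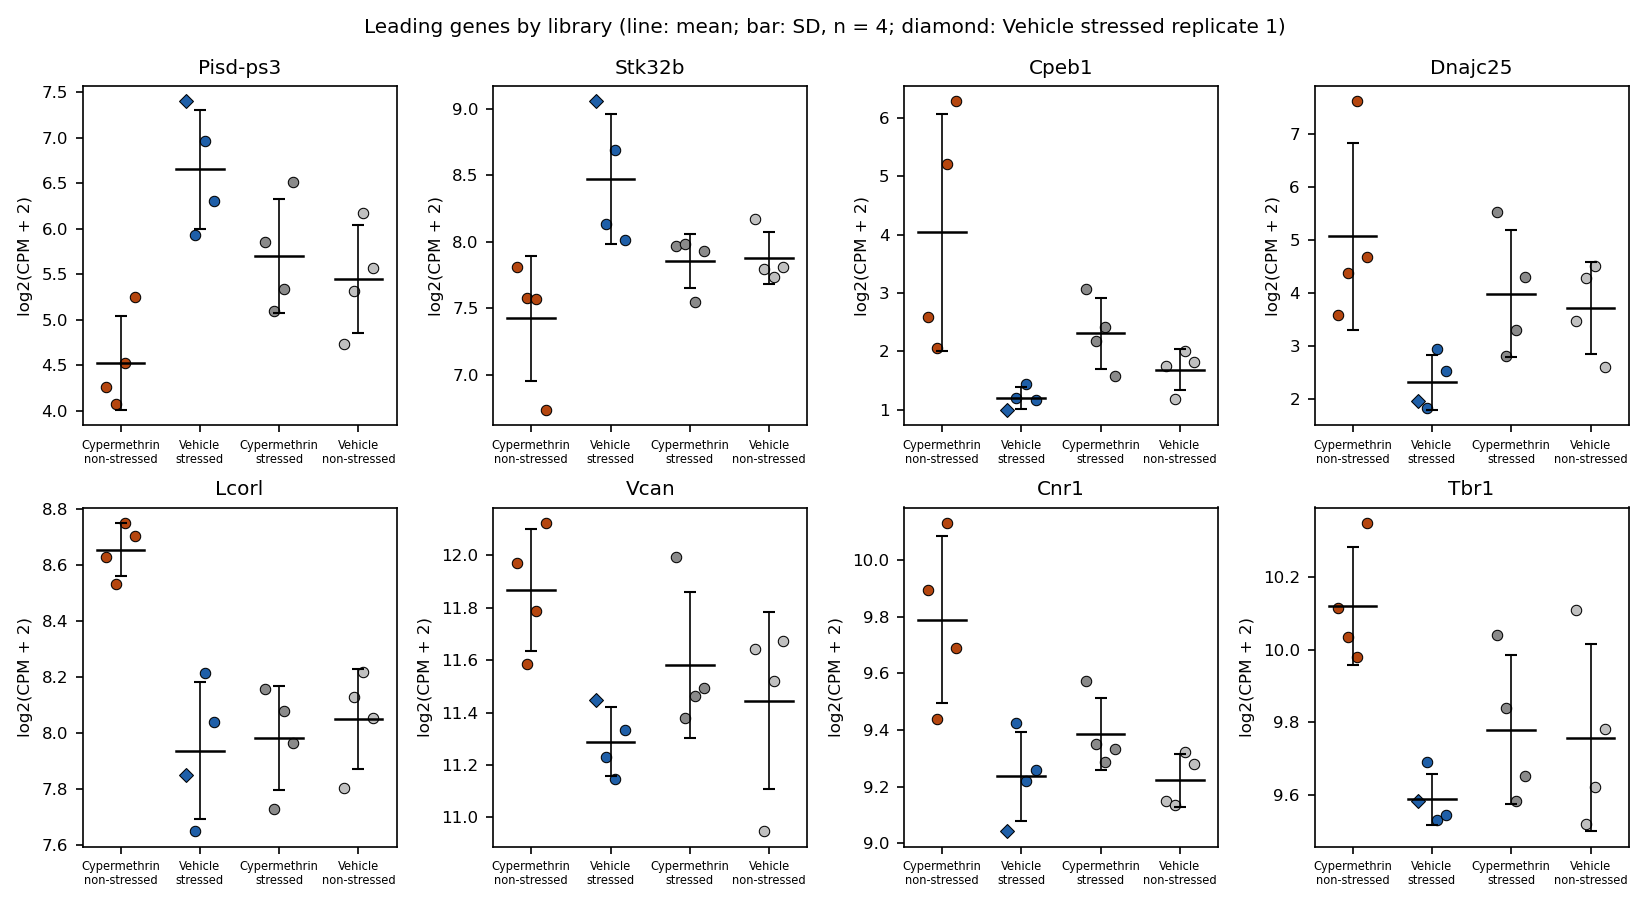
Level of 8 genes in each library, as log2(CPM + 2), with group means and SD (n = 4); the diamond is the library labelled as vehicle stressed replicate 1. Pisd-ps3 and Stk32b lay lower and Cpeb1, Dnajc25, Lcorl, Vcan, Cnr1 and Tbr1 higher in every cypermethrin non-stressed library than in any vehicle stressed one. None passed an adjusted p of 0.05 in edgeR, while DESeq2 called Pisd-ps3, Stk32b, Cpeb1, Dnajc25 and Lcorl.

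Among the 20 genes were some with higher levels and smaller fitted differences, none of which passed the adjusted threshold in edgeR. Lcorl, a nuclear corepressor-like gene, had 394, 368, 429 and 415 CPM in the cypermethrin non-stressed libraries, against 228, 199, 295 and 261 CPM in the vehicle stressed libraries, a log2 difference of 0.71 ± 0.18 (adjusted p = 0.482) and of 0.68 ± 0.19 in the repeat. Its means with both exposures and with neither, 252 and 264 CPM, were close to the vehicle stressed mean of 246 CPM. Lcorl overlaps Ncapg in the annotation, and since the use of strand is not stated its counts may hold reads of that gene.

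Cnr1 encodes the CB1 cannabinoid receptor, which migrating interneurons carry. It had 951, 693, 1120 and 824 CPM in the cypermethrin non-stressed libraries, against 525, 685, 594 and 611 CPM in the vehicle stressed libraries, so the lowest of the first group was just above the highest of the second. The log2 difference was 0.57 ± 0.15 (adjusted p = 0.482) and 0.51 ± 0.16 in the repeat, and the means were 669 CPM with both exposures and 596 CPM with neither.

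Vcan, the chondroitin sulfate proteoglycan versican of the extracellular matrix, had 4008, 3069, 3538 and 4462 CPM in the cypermethrin non-stressed libraries, against 2790, 2400, 2262 and 2581 CPM in the vehicle stressed libraries. The log2 difference was 0.59 ± 0.15, and 0.65 ± 0.16 in the repeat. Atxn10, a cytoplasmic protein linked to spinocerebellar ataxia in humans, followed the same order without overlap, with 376 to 533 CPM in the cypermethrin non-stressed group and 222 to 326 CPM in the vehicle stressed group, and its log2 difference was 0.71 ± 0.18, and 0.62 ± 0.19 in the repeat. Both had an adjusted p of 0.482.

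Other genes of the 20 that were higher included Ogfrl1, Fibp, Lum, Hsf2, Mier1, Mut, Tbp, Spata6 and Lrr1. Ogfrl1 had 64.3 to 221 CPM in the cypermethrin non-stressed group and 34.2 to 54.7 CPM in the vehicle stressed group. Lum, the matrix proteoglycan lumican made by fibroblasts, had 87.3 to 371 CPM and 48.0 to 78.7 CPM in the same groups. Lrr1 had 151 counts in all in the cypermethrin non-stressed group and 2 in the vehicle stressed group, which is too few for a fold. For Tbp, the TATA-binding protein, 1 library carried the difference: replicate 3 of the cypermethrin non-stressed group had 336 CPM and the other 3 had 41.9 to 58.4 CPM, against 18.5 to 43.5 CPM in the vehicle stressed group.

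The lower genes of the 20, besides Pisd-ps3 and Stk32b, were Fibcd1, Tnfrsf22 and Zfp658. Zfp658, a zinc finger protein, had 4.20 to 14.4 CPM in the cypermethrin non-stressed group and 24.9 to 44.7 CPM in the vehicle stressed group, and the groups did not overlap. Fibcd1, a membrane receptor for acetylated sugars, had 0 to 1.26 CPM in the cypermethrin non-stressed group and 3.77 to 37.1 CPM in the vehicle stressed group. Tnfrsf22, a decoy receptor for the death ligand TRAIL, had 1.23 to 15.7 CPM and 8.96 to 89.0 CPM, and its groups overlapped.

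**Figure D2:**
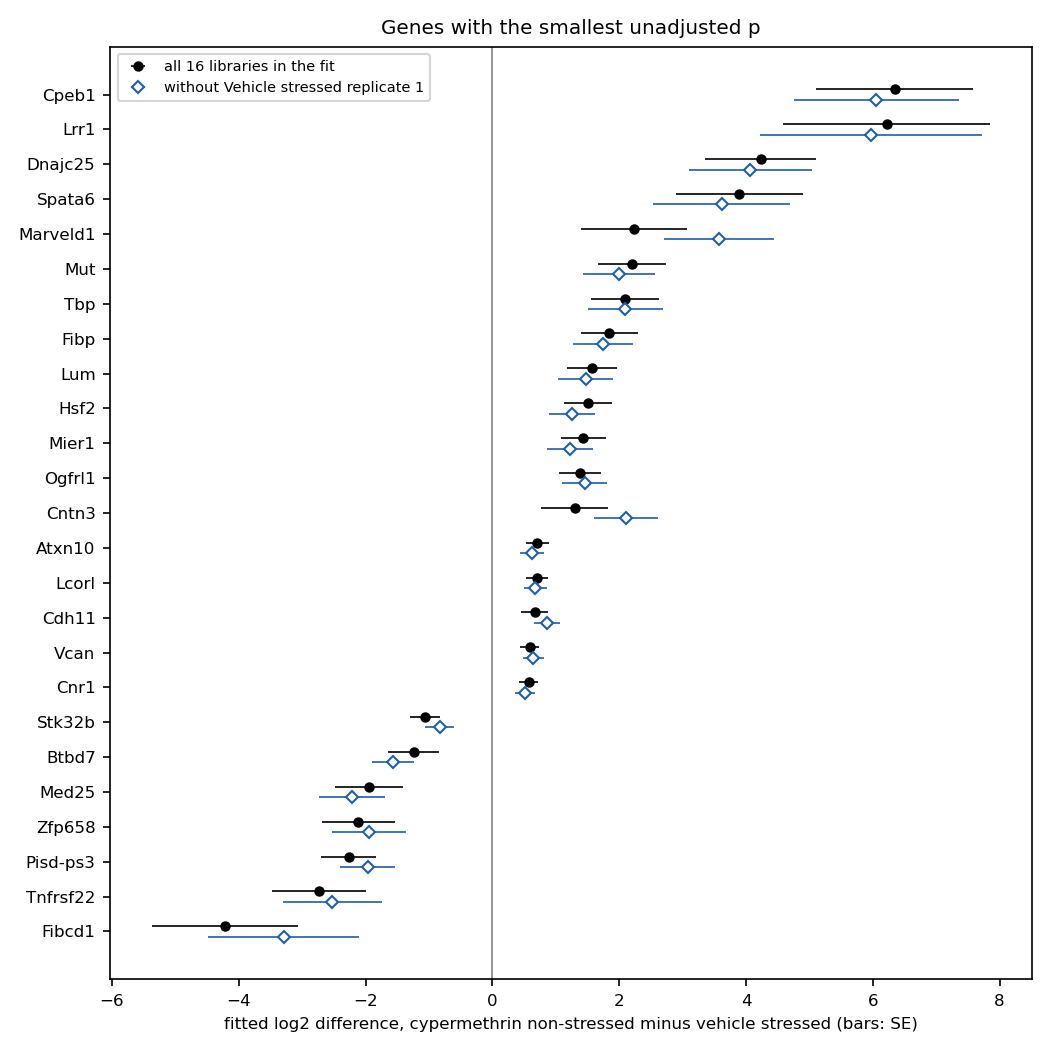
Fitted log2 difference, cypermethrin non-stressed minus vehicle stressed, with its standard error, for the genes with the smallest unadjusted p, with all 16 libraries in the fit and without the library labelled as vehicle stressed replicate 1. Every gene shown kept its sign, and among the shifts were those of Cntn3, 1.30 with that library and 2.11 without it, and Marveld1, 2.23 and 3.57.

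The repeat without the library labelled as vehicle stressed replicate 1 brought up Btbd7, Med25, Cntn3, Marveld1 and Cdh11 among its 10 smallest p values. All 10 had non-overlapping groups in the repeat, 7 higher and 3 lower. Cntn3, a contactin of the neuronal surface, had 33.0, 25.3, 32.1 and 25.2 CPM in the cypermethrin non-stressed libraries, against 4.38, 9.62 and 6.13 CPM in vehicle stressed replicates 2 to 4, and 27.6 CPM in the library labelled as vehicle stressed replicate 1. Cdh11, a classical cadherin on chromosome 8 from 102632095 to 102785642, had 487, 332, 501 and 571 CPM, against 270, 263 and 249 CPM in those 3 libraries and 407 CPM in replicate 1. Btbd7, a BTB domain protein, ran the other way: 88.5, 57.4, 35.1 and 48.6 CPM in the cypermethrin non-stressed libraries, against 156, 235 and 122 CPM in vehicle stressed replicates 2 to 4. Its log2 difference was -1.57 ± 0.33 without replicate 1 and -1.24 ± 0.40 with it, since replicate 1 had 30.9 CPM. Med25, a subunit of Mediator, was lower mainly through vehicle stressed replicate 2, with 383 CPM where the other vehicle stressed libraries had 37.8 to 46.6 CPM and the cypermethrin non-stressed ones 29.8 to 36.7 CPM.

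Gene lists were described by counts and medians, with the fitted differences of all 13224 genes, of which 50.7% were higher and whose median was 0.0097, as the background, and in the repeat with all 13609, of which 52.9% were higher and whose median was 0.039. No member of any list passed the adjusted threshold. The members were chosen with earlier results of these data known, so the counts describe these lists and are no test of them.

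The list of voltage-gated sodium channels, which pyrethroids bind, and of partners such as Fgf14 held no gene under an unadjusted p of 0.05. Its counts are therefore not of channels alone. Of 12 tested members of this list 7 were higher and 5 lower, with a median log2 difference of 0.03, and of 0.01 in the repeat. Scn3a, the main embryonic channel of cortical neurons, had 202, 179, 523 and 326 CPM in the cypermethrin non-stressed libraries, against 482, 264, 340 and 312 CPM in the vehicle stressed libraries. Its groups overlapped and its log2 difference was -0.18 ± 0.26, and 0.013 ± 0.26 in the repeat. Scn2a had a log2 difference of 0.03 ± 0.26 and Scn1a of 0.07 ± 0.47, and in the repeat of -0.13 ± 0.26 and 0.16 ± 0.49, so the signs of Scn3a and Scn2a turned. Scn8a had 105 to 267 CPM in the cypermethrin non-stressed group, against 161 to 177 CPM in vehicle stressed replicates 2 to 4 and 420 CPM in the library labelled as vehicle stressed replicate 1. Its log2 difference of -0.39 ± 0.29 became 0.05 ± 0.26 without that library.

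The glucocorticoid receptor and its response genes likewise held no gene under an unadjusted p of 0.05 with all libraries. Of 23 tested members 10 were higher and 13 lower, with a median of -0.19 and, in the repeat, of -0.11. Fkbp5, a chaperone of the receptor that glucocorticoids induce, had 35.3, 24.7, 43.3 and 47.2 CPM in the cypermethrin non-stressed libraries, against 48.0, 37.6, 15.0 and 42.7 CPM in the vehicle stressed libraries. The groups overlapped throughout, with a log2 difference of 0.07 ± 0.43, and of 0.24 ± 0.45 in the repeat. Tsc22d3, another glucocorticoid-induced gene, had 2.80 to 11.7 CPM and 8.55 to 21.9 CPM in the same groups, a log2 difference of -1.17 ± 0.75, and of -0.94 ± 0.78 in the repeat. Per1, a clock gene that glucocorticoids also induce, was added after its value was seen. It had a log2 difference of -1.08 ± 0.57, and of -0.93 ± 0.59 in the repeat. Sgk1, of the fixed set of named genes, had one of 0.02 ± 0.55, and of -0.11 ± 0.57 in the repeat. The list's 2 leading members by p were Cebpd and Ncoa2. Cebpd had 1 count in all in the cypermethrin non-stressed group and 23 in the vehicle stressed group, too few for a fold. Ncoa2 had a log2 difference of -0.41 ± 0.20, and of -0.39 ± 0.21 in the repeat. Nr3c1 itself had 32.0, 18.8, 51.5 and 10.7 CPM in the cypermethrin non-stressed libraries, against 91.3, 23.5, 7.84 and 10.8 CPM in the vehicle stressed libraries. Its log2 difference was -0.22 ± 0.62 with all libraries and 1.02 ± 0.58 in the repeat. The sign also turned without cypermethrin non-stressed replicate 4, to 0.042, and with limma voom, to 0.57.

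Immediate early genes, which neuronal firing induces, were split 10 higher and 7 lower over 17 tested members, with a median of 0.04, and in the repeat 7 higher and 10 lower, with a median of -0.13. Fos had too few counts to be tested, at 0 to 1.51 CPM in the cypermethrin non-stressed group and 0 to 8.25 CPM in the vehicle stressed group. Fosl2, a Fos relative, was the 1 member under an unadjusted p of 0.05 with all libraries, with 36.3 to 47.8 CPM in the cypermethrin non-stressed group and 56.3 to 109 CPM in the vehicle stressed group, without overlap. Its log2 difference was -0.85 ± 0.37, and -0.65 ± 0.38 in the repeat.

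**Figure D3:**
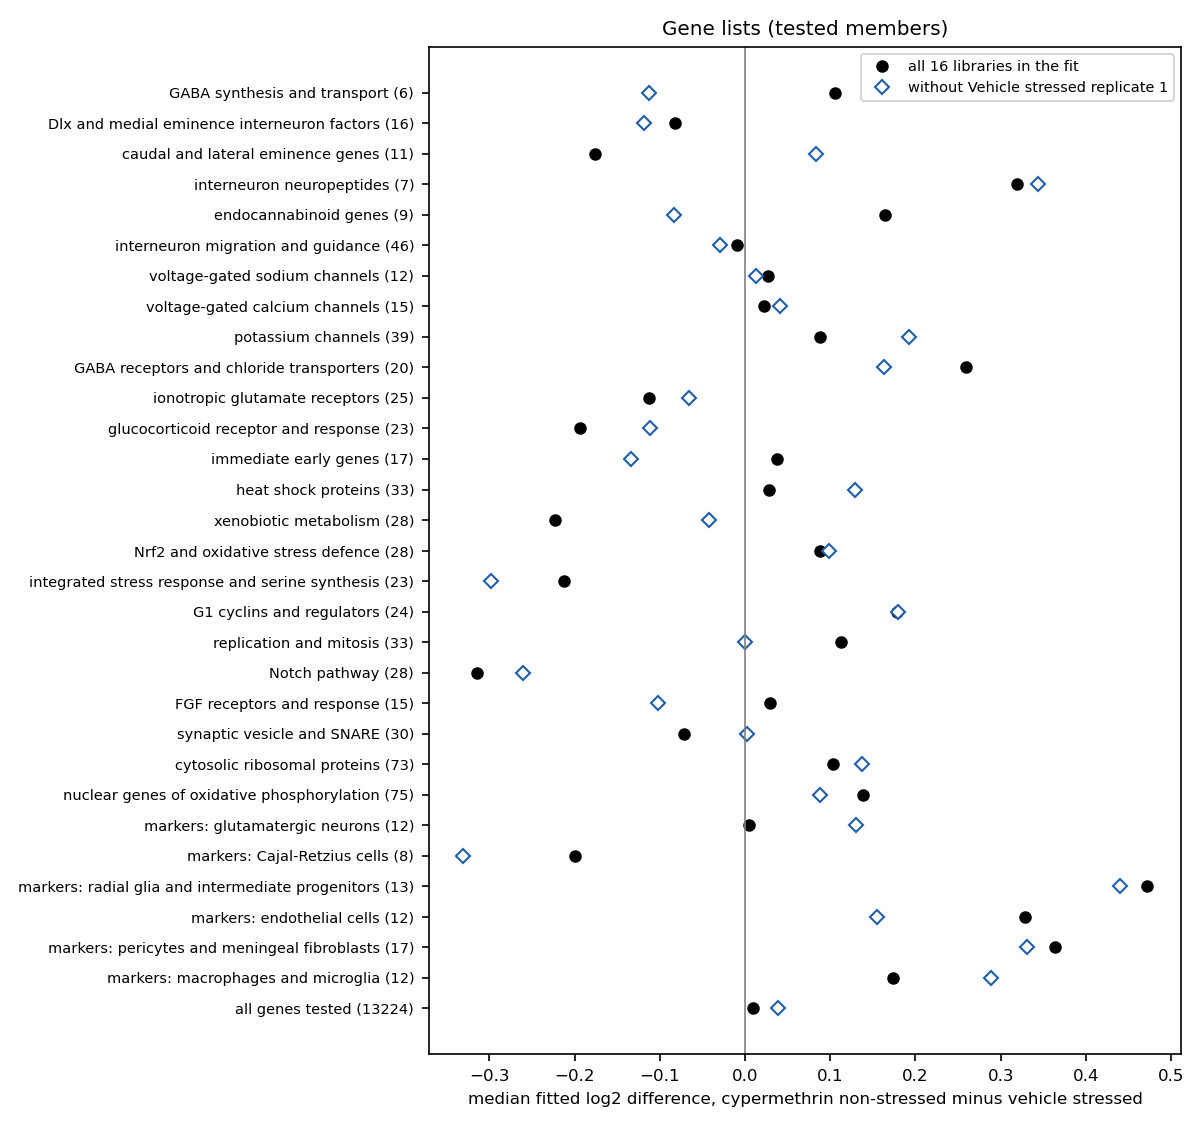
Median fitted log2 difference of each gene list, cypermethrin non-stressed minus vehicle stressed, for lists with at least 5 tested members (number in brackets), with all 16 libraries in the fit and without the library labelled as vehicle stressed replicate 1. The medians lay between -0.31 for the Notch pathway and 0.47 for radial glia markers with all libraries. Those of the sodium channel list and of all genes were near 0.

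Among heat shock proteins, 33 were tested, 17 higher and 16 lower, with 4 higher and 2 lower under an unadjusted p of 0.05, where all genes gave 4.12% and 4.14%. In the repeat 23 were higher and 10 lower, with a median of 0.13 in place of 0.03, and 2 higher and 1 lower were under 0.05. Hsf2, a heat shock transcription factor active in the developing brain, had 83.2, 122, 328 and 191 CPM in the cypermethrin non-stressed libraries, against 25.7, 91.1, 54.5 and 82.3 CPM in the vehicle stressed libraries. Its log2 difference was 1.51 ± 0.37, and 1.25 ± 0.36 in the repeat, with a slight overlap of the groups. Hsp90aa1, the inducible cytosolic Hsp90, had 662 to 759 CPM in the cypermethrin non-stressed group and 458 to 628 CPM in the vehicle stressed group, a log2 difference of 0.35 ± 0.15, and of 0.27 ± 0.15 in the repeat. Dnajc6, the clathrin-uncoating auxilin, had a log2 difference of 0.62 ± 0.24, and of 0.57 ± 0.26 in the repeat. Dnajc1, a J-domain protein of the endoplasmic reticulum, had one of -0.99 ± 0.35, and of -0.93 ± 0.37 in the repeat, with 73.2 to 151 CPM in the cypermethrin non-stressed group and 52.4 to 284 CPM in the vehicle stressed group.

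Genes of xenobiotic metabolism numbered 28 tested, 11 higher and 17 lower, with a median of -0.22 and, in the repeat, of -0.04. Cyp46a1, the brain cholesterol 24-hydroxylase, had 0.47 to 1.54 CPM in the cypermethrin non-stressed group and 3.21 to 8.56 CPM in the vehicle stressed group, and Gstz1, a glutathione transferase, had 1.86 to 23.5 CPM and 34.6 to 102 CPM. Both sets of values were without overlap, where 1.29% of all genes were lower in this way. The log2 difference of Cyp46a1 was -2.44 ± 1.05, and -2.14 ± 1.12 in the repeat, from 13 counts and 63 counts in all. That of Gstz1 was -1.71 ± 0.68, and -1.24 ± 0.70 in the repeat. With all libraries 2 members of the list were under an unadjusted p of 0.05, and in the repeat 0 were. No member of the 28 Nrf2 and oxidative defence genes was under an unadjusted p of 0.05. Hmox1, the heme oxygenase, had a log2 difference of 1.14 ± 0.76, and of 1.39 ± 0.81 in the repeat, and Nqo1 was not tested, for too few counts. In the integrated stress response and serine synthesis list of 23, 10 were higher and 13 lower with a median of -0.21, and 1 higher and 2 lower were under an unadjusted p of 0.05. In the repeat 8 were higher and 15 lower with a median of -0.30. Sesn2, a stress-induced inhibitor of growth signalling, had 0.62 to 23.1 CPM in the cypermethrin non-stressed group and 0 to 0.47 CPM in the vehicle stressed group, without overlap, from 113 counts and 2 counts in all, which is too few for a fold. Ppp1r15a, which restarts translation after stress, had 0 to 4.32 CPM in the cypermethrin non-stressed group and 4.70 to 25.2 CPM in the vehicle stressed group, also without overlap. Psat1, a serine synthesis enzyme, had a log2 difference of -1.70 ± 0.62, and of -1.91 ± 0.63 in the repeat, and its groups overlapped.

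None of the genes that identify these cells passed the adjusted threshold. Of 16 tested Dlx and medial eminence factors, 6 were higher and 10 lower, with a median of -0.08 and 3 lower under an unadjusted p of 0.05, where 4.14% of all genes were. In the repeat 7 were higher and 9 lower, with a median of -0.12 and 1 lower under 0.05. Dlx2, a homeobox factor of the ganglionic eminences, had 15.4, 13.6, 6.11 and 25.2 CPM in the cypermethrin non-stressed libraries, against 9.99, 24.1, 43.8 and 53.0 CPM in the vehicle stressed libraries. The log2 difference was -1.13 ± 0.54 and, without the library labelled as vehicle stressed replicate 1, -1.43 ± 0.50. Dlx1 had 53.7, 45.0, 63.8 and 80.3 CPM, against 173, 63.6, 95.1 and 82.7 CPM, and its log2 difference of -0.77 ± 0.33 became -0.41 ± 0.32 in the repeat. Lhx6, the factor of medial eminence interneurons, had 171 to 314 CPM in the cypermethrin non-stressed group and 286 to 347 CPM in the vehicle stressed group, a log2 difference of -0.28 ± 0.21, and of -0.31 ± 0.23 in the repeat. The log2 differences of Sox6 and Erbb4 were -0.12 ± 0.21 and -0.14 ± 0.18, and in the repeat -0.19 ± 0.21 and -0.13 ± 0.19.

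GABA synthesis and transport genes were 3 higher and 3 lower, with a median of 0.11, and in the repeat 3 higher and 4 lower, with a median of -0.11. Gad1 had 53.7 to 151 CPM in the cypermethrin non-stressed group and 40.4 to 125 CPM in the vehicle stressed group, with a log2 difference of 0.27 ± 0.36, and of 0.65 ± 0.36 in the repeat. Gad2, the second GABA-synthesising enzyme, had one of 0.43 ± 0.25, and of 0.24 ± 0.24 in the repeat. That of Slc32a1, the vesicular GABA transporter, was -0.89 ± 0.55, and -1.11 ± 0.54 in the repeat. The neuropeptide Sst, expressed by a main class of medial eminence interneurons, had 124 to 327 CPM in the cypermethrin non-stressed group and 122 to 178 CPM in the vehicle stressed group, with a log2 difference of 0.54 ± 0.29, and of 0.47 ± 0.31 in the repeat. Gene models of Gad1 and Dlx1 overlap antisense genes, so that their counts are uncertain in the same way as those of Lcorl. The same holds for Gad2, Fibp, Mut, Mier1, Tbp, Cntn3, Ccnd2, Kcnt2, Grid1, Bsn, Dnajc1, Ndufs3, Gstz1 and Ppp1r15a, each of which overlaps another gene of the table.

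Of 46 tested genes of interneuron migration and guidance, 23 were higher and 23 lower, and in the repeat 21 of 47 were higher and 26 lower. Dcc, the netrin receptor, had 845 to 1290 CPM in the cypermethrin non-stressed group and 733 to 945 CPM in the vehicle stressed group. Its log2 difference was 0.38 ± 0.16, and 0.41 ± 0.17 in the repeat. Nrg1, a neuregulin ligand of Erbb4, had 36.1, 19.4, 3.99 and 25.7 CPM in the cypermethrin non-stressed libraries, against 20.9, 51.0, 53.1 and 62.9 CPM in the vehicle stressed libraries. Its log2 difference was -1.15 ± 0.51, and -1.39 ± 0.50 in the repeat, where the groups did not overlap. Cxcr4, the Cxcl12 receptor, had a log2 difference of -0.30 ± 0.36, and of -0.34 ± 0.38 in the repeat.

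Of the membrane excitability genes, 39 potassium channels were tested, 24 higher and 15 lower, with a median of 0.09, and in the repeat 21 of 40 were higher and 19 lower, with a median of 0.19. Kcnt2, a sodium-activated potassium channel, had 114, 86.0, 164 and 131 CPM in the cypermethrin non-stressed libraries, against 90.8, 71.7, 48.8 and 64.8 CPM in the vehicle stressed libraries, a log2 difference of 0.84 ± 0.31, and of 1.00 ± 0.32 in the repeat. Kcnq3, a subunit of the M-current, had 82.3 to 93.3 CPM and 23.1 to 71.9 CPM in the same groups, without overlap. Cacna2d1, an auxiliary calcium channel subunit, had a log2 difference of 0.51 ± 0.21, and of 0.50 ± 0.22 in the repeat. The differences for Cacng7 and Grid1, of the list of ionotropic glutamate receptors and their auxiliary proteins, came with 1 library. Cacng7 had 432 CPM in the library labelled as vehicle stressed replicate 1, against 29.2 to 66.2 CPM in the other 7 libraries. Its log2 difference of -1.74 ± 0.52 became -0.21 ± 0.36 without that library. Grid1 had 196 CPM there and its difference changed sign, -1.98 ± 0.91 with that library and 1.01 ± 0.84 without it.

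The Notch pathway had the lowest median of the larger lists, -0.31 over 28 tested members, 8 higher and 20 lower, and -0.26 in the repeat with 11 higher and 17 lower. Rbpj, the DNA-binding effector, Heyl, a target, and Dll1, a ligand, were among the 4 lower under an unadjusted p of 0.05, and each had its highest level in the library labelled as vehicle stressed replicate 1. There Rbpj had 344 CPM, against 25.2 to 91.1 CPM in the other 7 libraries, and its log2 difference of -1.51 ± 0.49 became -0.39 ± 0.40 without it. Heyl became -0.28 ± 0.65 and Dll1 -0.18 ± 0.72. Numb, an inhibitor of Notch, was lower with and without that library, with log2 differences of -1.22 ± 0.50 and -1.37 ± 0.51, and it had 6.38 to 21.3 CPM in the cypermethrin non-stressed group and 20.7 to 62.7 CPM in the vehicle stressed group. Maml3, a coactivator, had 40.1, 34.9, 29.2 and 54.2 CPM, against 84.6, 81.2 and 73.3 CPM in vehicle stressed replicates 2 to 4 and 7.13 CPM in replicate 1.

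In the synaptic vesicle and SNARE list 3 of 30 tested genes were lower without overlap, Bsn and Nsf among them, where 1.29% of all genes were. Bsn, a scaffold of the presynaptic active zone, had 326, 308, 162 and 306 CPM in the cypermethrin non-stressed libraries, against 439, 370, 496 and 364 CPM in the vehicle stressed libraries. Nsf, the ATPase that takes SNARE complexes apart, had 29.0 to 83.6 CPM in the cypermethrin non-stressed group and 88.9 to 152 CPM in the vehicle stressed group. The log2 differences were -0.60 ± 0.20 for Bsn and -0.90 ± 0.30 for Nsf, and -0.57 and -0.88 in the repeat, while the list was 13 higher and 17 lower with a median of -0.07, and 16 higher and 15 lower in the repeat. Napb, a partner of Nsf in the same step, had a log2 difference of 0.94 ± 0.37, and of 0.77 ± 0.38 in the repeat, and its groups overlapped.

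Genes of growth and energy metabolism were mostly fitted higher by small amounts. Of 73 tested cytosolic ribosomal proteins 55 were higher and 18 lower, with a median of 0.10, and of 75 nuclear genes of oxidative phosphorylation 51 were higher and 24 lower, with a median of 0.14. In the repeat the counts were 59 and 14, and 43 and 32. The summed level of the ribosomal genes spanned 25130 to 42210 CPM in the cypermethrin non-stressed group and 31030 to 33220 CPM in the vehicle stressed group, so the cypermethrin non-stressed libraries lay on both sides of the vehicle stressed ones. The 2 leading oxidative phosphorylation genes by p, Cox7b and Ndufs4, had groups that overlapped. Their log2 differences were 0.78 ± 0.30 and 0.93 ± 0.35, and 0.53 ± 0.26 and 0.72 ± 0.35 in the repeat. In that list 3 of 75 tested genes were higher without overlap, where 1.26% of all genes were. Ndufs3, a core subunit of complex I, was added after its value was seen. It had 46.7 to 62.2 CPM in the cypermethrin non-stressed group and 10.7 to 36.9 CPM in the vehicle stressed group, without overlap. Ccnd2, a G1 cyclin abundant in cortical progenitors and young neurons, had 4017, 4135, 5975 and 6660 CPM in the cypermethrin non-stressed libraries, against 3929, 3863, 4326 and 4252 CPM in the vehicle stressed libraries, a log2 difference of 0.34 ± 0.14, and of 0.33 ± 0.15 in the repeat.

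Markers of other cell types were present in all libraries, and their part in the results above was not tested. The 12 glutamatergic markers had the highest sums of the marker lists, 8797 to 10290 CPM in the cypermethrin non-stressed group and 8354 to 11960 CPM in the vehicle stressed group. In the same groups the GABA synthesis and transport list summed to 458 to 816 CPM and 431 to 607 CPM. The Dlx and medial eminence list summed to 4615 to 6438 CPM and 4495 to 5439 CPM. Sums over different genes do not give shares of cells. The 17 tested pericyte and meningeal fibroblast genes, whose list holds Lum, were 14 higher and 3 lower, with a median of 0.36, and in the repeat 13 and 4, with a median of 0.33. Their summed level was 2170, 2496, 4749 and 3663 CPM in the cypermethrin non-stressed libraries, against 1834, 2868, 2300 and 1980 CPM in the vehicle stressed libraries, and the ranges overlapped. Col3a1, a fibrillar collagen, had a log2 difference of 0.76 ± 0.26 and Col1a1 of 0.93 ± 0.38, and in the repeat of 0.61 ± 0.27 and 0.77 ± 0.42. The 13 listed macrophage and microglia genes summed to 108, 108, 571 and 91.5 CPM in the cypermethrin non-stressed libraries and 200, 266, 178 and 151 CPM in the vehicle stressed libraries. Replicate 3 of the cypermethrin non-stressed group, which was also the highest for Dnajc25, Tbp, Hsf2 and Lum, thus held the most of that list. The 12 endothelial genes summed to 392, 434, 1012 and 226 CPM and to 356, 596, 534 and 444 CPM, with that same library highest. Trem2 was at 0 in 6 of the 8 libraries. Adult-type globin genes were listed at 0 in all 8, while the embryonic globin Hbb-y had 7.01 to 147 CPM and 68.9 to 154 CPM.

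**Figure D4:**
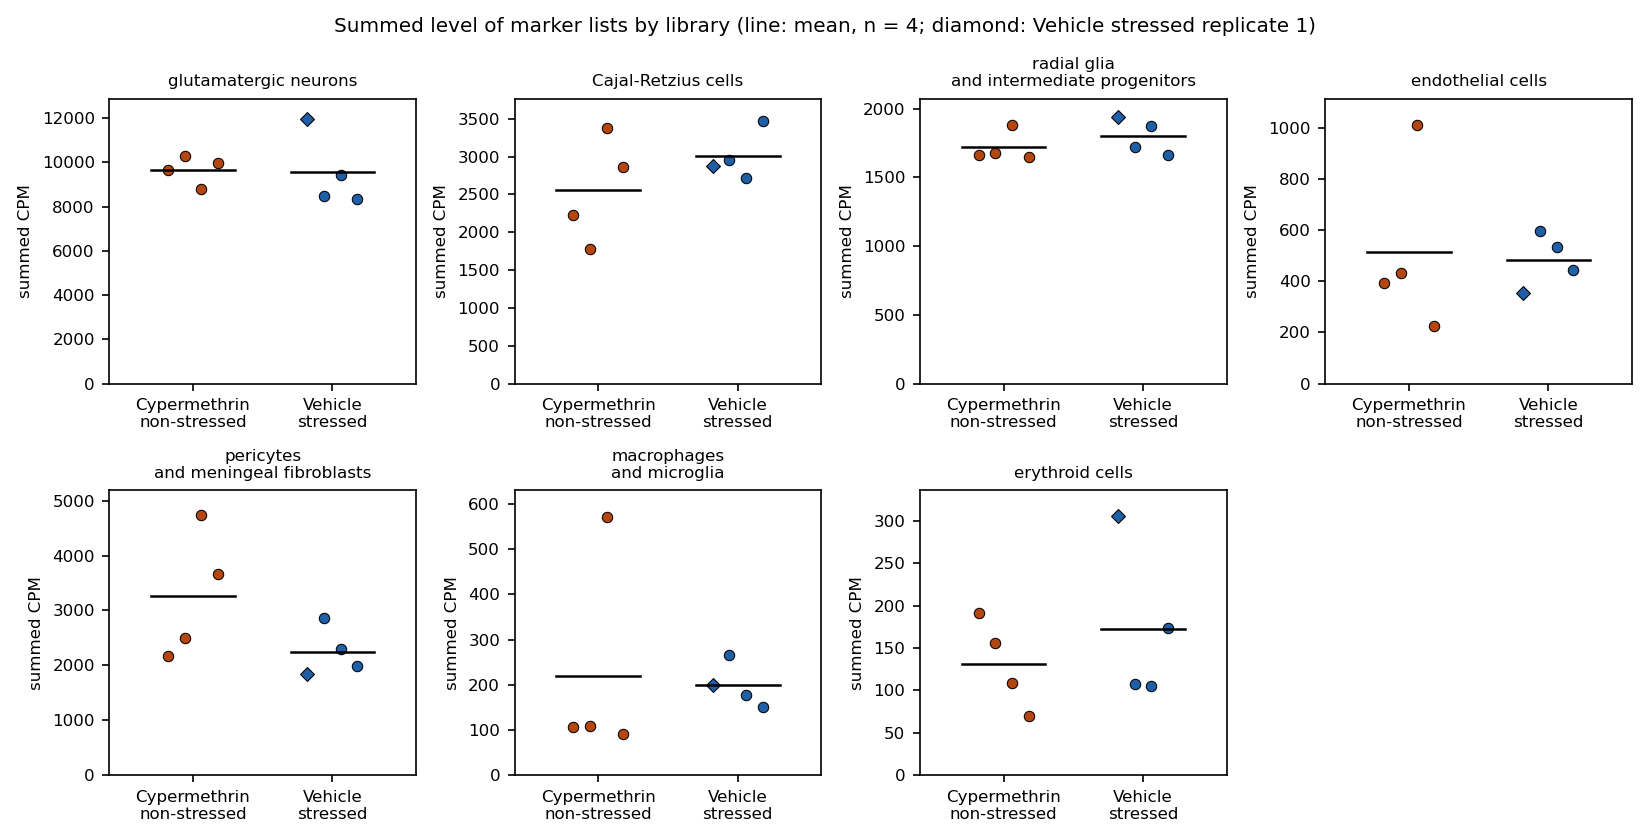
Summed level of the marker lists of 7 cell types in each library, in CPM, with group means (n = 4 each); the diamond is the library labelled as vehicle stressed replicate 1. The cypermethrin non-stressed and vehicle stressed ranges overlapped for each list, and cypermethrin non-stressed replicate 3 was highest for endothelial, pericyte and meningeal, and macrophage markers.

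Radial glia and intermediate progenitor markers had, among lists with 5 or more members tested, the highest median, 0.47, with 11 higher and 2 lower of 13 tested, and 0.44 in the repeat. Their summed level, carried by Ptprz1 and Nes, was 1651 to 1884 CPM in the cypermethrin non-stressed group and 1662 to 1939 CPM in the vehicle stressed group. Nes was one of the 2 lower, with 370, 312, 369 and 461 CPM in the cypermethrin non-stressed libraries, against 699, 476, 537 and 436 CPM in the vehicle stressed libraries, a log2 difference of -0.51 ± 0.19, and of -0.35 ± 0.19 in the repeat. Tnc, the matrix protein tenascin C and one of the 11 higher, had 2.39 to 29.4 CPM and 0 to 5.70 CPM in the same groups. Tbr1, a transcription factor of deep-layer glutamatergic neurons, had the smallest p of the glutamatergic markers. It had 1107, 1047, 1009 and 1304 CPM in the cypermethrin non-stressed libraries, against 765, 823, 738 and 744 CPM in the vehicle stressed libraries, a log2 difference of 0.54 ± 0.15 with and 0.54 ± 0.16 without the library labelled as vehicle stressed replicate 1. The 12 glutamatergic markers as a list had a median of 0.0043, 7 higher and 5 lower, and the 8 Cajal-Retzius markers had 2 higher and 6 lower with a median of -0.20. In the repeat the medians of these lists were 0.13 and -0.33.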

How the data were processed

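Raw counts of reads per gene symbol were deposited by the authors for 24539 genes, of which 18733 had a count. Alignment with STAR 2.5 to mm10 is named in the submitters' processing notes. How reads were counted, with which annotation, strand setting and filters, is not given in the sources used here. Laser capture of about 1000 fixed cells and a low-input amplification kit, per the labels' protocols, leave few starting molecules per gene.

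Genes were kept by filterByExpr (count minimum 10), libraries were scaled by TMM, and edgeR 4.0.16 in R 4.3.3 fitted a robust quasi-likelihood model with 1 mean per group to all 16 libraries. The contrast was cypermethrin non-stressed minus vehicle stressed, with Benjamini-Hochberg adjustment over all genes tested and a threshold of 0.05, and it was repeated without the library labelled as vehicle stressed replicate 1. DESeq2 1.42.0 and limma 3.58.1 were alternatives. Each standard error is the absolute fitted log2 difference divided by the square root of F. The fits were tested on simulated data. Totals ran from 2291283 to 4324129 counts.

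The rule for named genes took those called and, if these were under 10, the 20 smallest p with all libraries and the 10 smallest in the repeat, leaving out 2 clone models in each, a fixed set of 24 (22 tested), the sex-linked genes, and the 2 leading members of each gene list. A further 16 genes were added after their values were seen, among them Hsp90aa1, Dnajc6, Psat1, Numb, Maml3, Dll1, Napb, Ndufs3, Col1a1 and Scn1a. The members and lists were chosen with earlier results of these data known. Replicate numbers were given in accession order. GENCODE vM21 positions use the files' build, 23887 symbols matched, and 26 of 121 named genes overlap another gene of the table. Promoter sequences are from RefSeq, GRCm38.p6. Some results are not reported here.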

Additional observations from a re-analysis of the deposited data

Results flagged for a closer look

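Each gene and summed marker list named by rule or added later was checked in each group of 4 for a library whose gap to its nearest neighbour, on the log2(CPM + 2) scale, exceeded Dixon's critical share of the group's range. Of 260 groups 25 met this, where chance gives about 5% of them for normally distributed values. Some of the 25 came with how the genes were chosen or with few counts: Lrr1, Sesn2 and Cebpd had counts in 1 library of the group, and Cdh11 was named from the repeat without the library that stands out for it. The library labelled as vehicle stressed replicate 1 accounted for 9, cypermethrin non-stressed replicate 3 for 6 and vehicle stressed replicate 4 for 5.

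Cypermethrin non-stressed replicate 3 was the highest of its group for Tbp at 336 CPM (others 41.9 to 58.4), for the summed macrophage and microglia markers at 571 CPM (others 91.5 to 108) and for the summed radial glia markers at 1884 CPM (others 1651 to 1678). It was the lowest for Ncoa2 at 174 CPM (others 280 to 282), Gstz1 at 1.86 CPM (others 20.7 to 23.5) and Bsn at 162 CPM (others 306 to 326). In the same group replicate 4 was the lowest for Rbpj at 25.2 CPM, and Cebpd had 0.31 CPM in replicate 2 and 0 in the others.

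The library labelled as vehicle stressed replicate 1 was the highest of its group for Cdh11 at 407 CPM (others 249 to 270), Scn8a at 420.0 CPM (others 161 to 177), the ferritin gene Ftl1 at 1497 CPM (others 827 to 865) and the erythroid anion exchanger Slc4a1 at 82.8 CPM (others 4.63 to 7.83). It was the lowest for Cox7b, a subunit of complex IV, at 58.5 CPM (others 171 to 172) and for Maml3 at 7.13 CPM (others 73.3 to 84.6). The Y-linked Kdm5d, Ddx3y and Eif2s3y were at 0 CPM there, and at 42.4 CPM or more in the rest of the group.

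Vehicle stressed replicate 2 had 383 CPM of Med25. Replicate 3 was low for Dnajc1 at 52.4 CPM (others 219 to 284) and for Scn1a at 17.5 CPM (others 37.0 to 39.0). Replicate 4 was high for Lhx6 at 347 CPM (others 286 to 291), Spata6 at 10.4 CPM (others 0.36 to 0.95) and Fos at 8.25 CPM, and its 0.47 CPM of Lrr1 and of Sesn2 were the sole counts of these genes in the group.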

How the results depend on the processing

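No paired analysis was possible because the labels give no replicate numbers and pair no embryos. Leaving out each library in turn called 0 genes each time, with 928 to 1443 genes at an unadjusted p under 0.05, and, after the library labelled as vehicle stressed replicate 1 had been left out, with 575 to 1167. The lowest of these, 575, was without vehicle stressed replicate 3. Without a filter on low counts edgeR called 2 genes, Cpeb1 (adjusted p = 0.0166) and Pisd-ps3 (adjusted p = 0.0106), with 1726 under an unadjusted p of 0.05; the repeat gave 2 (Btbd7 and Cpeb1) and 1424. An additive model of the exposures also called 2 genes, Cpeb1 and Pisd-ps3. It sets the 2 main effects over all 16 libraries against each other, which is another quantity than the difference between the 2 groups. DESeq2 called 13 genes with all libraries and 12 in the repeat. A fit to the 8 libraries alone left 518 genes at an unadjusted p under 0.05, and a fit to 7 left 476. Within the first library code (1 against 2 libraries) there were 179 and within the second (3 against 2) 396, with 0 called in both. The cause of these changes was not tested. RLE factors, totals without TMM, a count minimum of 50, the library code as a term and limma voom called 0. The alternatives for the repeat were chosen after the data had been seen.

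Of 118 genes, 97 kept their sign under all settings, and 55 of 2207 values reversed. Leave-one-out ranges of the log2 difference were -0.11 to 0.65 for Gad1, -0.28 to 0.0042 for Sox6, -0.11 to 0.10 for Dcx, -0.13 to 0.22 for Scn2a, -0.57 to 0.013 for Scn3a, -0.66 to 0.054 for Scn8a, -0.14 to 0.30 for Scn1a, -0.68 to 1.02 for Nr3c1, -0.19 to 0.24 for Fkbp5, -0.27 to 0.33 for Sgk1, -2.91 to 1.01 for Grid1 and -2.86 to 0.64 for Slc4a1. Within the first code the reversed values were -0.60 for Gad1, 0.023 for Sox6, -0.21 for Dcx, -0.27 for Fkbp5, -0.0020 for Sgk1, -0.28 for Hmox1, 1.41 for Faah, 0.010 for Nrg1, 0.013 for Fgf14, 0.89 for Pisd-ps1 and 0.15 for Psat1. Within the second they were 0.18 for Cxcr4, -0.26 for Scn2a, 0.068 for Scn3a, 0.090 for Scn8a, 1.52 for Nr3c1, 0.96 for Grid1, 1.17 for Slc4a1, -0.13 for Pisd-ps2 and 0.66 for Dll1. Dcx was -0.0035 with RLE factors, -0.0031 with a minimum of 50, -0.014 with the code as a term, -0.0035 with DESeq2 and -0.020 with voom. Scn2a was -0.0041 with the code as a term, and voom gave 0.57 for Nr3c1 and -0.31 for Sgk1. Genes at a few CPM rest on few reads at these totals, which limits what could be detected for them.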
